A study of Homo sapiens with 15 samples.

Results

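The genes described here were grouped by their names as constitutive subunits of the proteasome. They were taken as every gene listed in both deposited expression tables under a symbol made of PSMA, PSMB, PSMC or PSMD and a number. PSMB8, PSMB9 and PSMB10 were left out. The group also holds PSMB11, a subunit of the thymus proteasome, and the assembly chaperones PSMD5, PSMD9 and PSMD10. The rule gave 35 genes, of 16382 listed for MRC5 cells and 16076 listed for H196 cells. Of these, 15 were counted with the 20S core (PSMA1 to PSMA7, PSMB1 to PSMB7 and PSMB11). The other 20 were counted with the 19S cap (PSMC1 to PSMC6 and PSMD1 to PSMD14, chaperones included). MRC5 is a human lung fibroblast line, H196 is a small cell lung cancer (SCLC) line of the non-neuroendocrine kind, and H69 is a neuroendocrine SCLC line. MRC5_Mo and H196_Mo cells were kept in mono-culture for 7 days. Over the same time MRC5_coH69 cells shared their medium with H69, MRC5_coH196 cells with H196, and H196_Co cells with MRC5. The paper grew SCLC lines in RPMI and MRC5 in MEM, both with serum, and does not state the medium of the co-cultures. A difference in medium between mono-culture and co-culture, if any, cannot be told apart from the partner. A membrane with pores of 0.4 µm kept the partners apart, and mRNA of one side was sequenced in 3 libraries per group, 15 in all. Each group rests on 1 cell line, and its libraries are described only as parallel replicates, so the p-values below measure the spread between these libraries, which may be technical.

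The proteasome degrades proteins that carry ubiquitin chains. Its 20S core is a stack of outer alpha rings, which form the gate, and inner beta rings, of which PSMB6, PSMB7 and PSMB5 carry the caspase-like, trypsin-like and chymotrypsin-like sites. The 19S cap sits on the gate: the ATPases of its base (PSMC1 to PSMC6) unfold the substrate, PSMD2 and PSMD4 bind ubiquitin, and the lid holds PSMD14, which removes the chain before the substrate enters. PSMD5, PSMD9 and PSMD10 are chaperones that help to assemble the base and do not remain in the finished particle. In many cells the subunit genes are transcribed together, and NFE2L1, a transcription factor that binds antioxidant response elements, raises them when proteasome activity falls short.

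Short stretches of promoter are shown first, as a description of letters near these genes, and the falls named here are described further on. RefSeq promoter windows (GRCh38.p14, 250 bases before to 50 bases after a transcription start) were at hand for 30 of the 35 genes, in 36 windows. PSMA7, PSMB1, PSMB6, PSMB7 and PSMD4 were not matched. The letters TGACNNNGC, the core of the antioxidant response element, were found on either strand near 9 of the 30 genes, and near 16.1% of the 27305 genes in the promoter table (13.3% of its 35116 windows). The letters CCGGAAG, which ETS factors bind, were found near 11 of the 30 genes (36.7%) and near 12.2% of all genes (10.3% of windows). The letters CCAAT were found near 17 of the 30 genes (56.7%) and near 39.7% of all genes (34.6% of windows). Shown are, for each role, the gene with the largest fall in MRC5_coH196 cells whose TGACNNNGC match lies before the start of a RefSeq transcript, followed by a match of CCGGAAG in PSMD14 and of CCAAT in PSMA3, which had the largest falls of the cap and the core. Each stretch is written 5′ to 3′ along the gene's strand with the match in capitals.
PSMA4 (alpha ring, chr15:78540650-78540679, plus strand): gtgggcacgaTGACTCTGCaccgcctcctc
PSMB3 (beta ring, chr17:38752627-38752656, plus strand): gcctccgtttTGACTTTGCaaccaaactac
PSMC5 (base, chr17:63827654-63827683, plus strand, match on the opposite strand): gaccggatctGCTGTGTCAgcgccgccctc
PSMD3 (lid, chr17:39980760-39980789, plus strand): tcccctttgtTGACTCGGCcatcggcctgc
PSMD9 (chaperone, chr12:121888678-121888707, plus strand): cggcttccggTGACCCAGCtccgccctaag
PSMD14 (lid, chr2:161308410-161308439, plus strand): aactagtgaacCCGGAAGtgcttcgcggcg
PSMA3 (alpha ring, chr14:58244813-58244842, plus strand): ttggcagttcagCCAATgagcgggcctgtt
The PSMD9 match lies directly after a CCGGAAG match on the opposite strand, at the left of the stretch shown. CCAAT occurs on both strands in PSMA3 and in PSMD14, and in PSMD14 these matches overlap each other. PSMD10 holds CCAAT and neither of the other motifs. The same is so for PSMA2, PSMA3, PSMA5, PSMB2, PSMB5 and PSMC3, all of which fell in MRC5_coH196. The PSMA4 and PSMC5 stretches lie before the start of a shorter transcript and inside the gene as the deposited table gives it (from 78540405 and from 63827431). Of the members that fell further than PSMA4 (−0.80), PSMD1 held a TGACNNNGC match and PSMA3, PSMD14, PSMC3, PSMD6, PSMC2 and PSMD11 held none. These matches describe the letters in the windows, and binding was not measured. Their part in the falls was not tested.

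The libraries held 16073597 to 19170560 expected counts, and counts of the members other than PSMB11 ran from 553 to 12374 in a library. PSMB11, the beta subunit of the thymus proteasome, had 0 to 2 counts in every library and was removed as too low to test, which left 34 members with a test. It stayed in the sums and means of the core. All 8 fibroblast markers reached 1 CPM (expected counts divided by the library total on a fixed scale) in the MRC5 groups, where their summed level was 33401 to 36056 CPM in MRC5_Mo, 36144 to 37293 in MRC5_coH69 and 21290 to 22472 in MRC5_coH196. No neuroendocrine, immune or endothelial marker reached 1 CPM in an MRC5 library, while 3 of 5 epithelial markers did, at a summed 125 to 167 CPM. In H196 cells 2 of the 7 neuroendocrine markers reached 1 CPM, at a summed 24.9 to 27.7 CPM. So did 2 of the 8 fibroblast markers, at a summed 4769 to 5523 CPM. All 3 non-neuroendocrine markers reached 1 CPM in both lines and so do not tell them apart. VIM was counted in this list and in the fibroblast list, so their sums share a gene. The non-neuroendocrine sum was 5006 to 5475 CPM in H196_Mo, 6750 to 7102 in MRC5_Mo and 6019 to 6281 in MRC5_coH69. It was 9141 to 9588 in MRC5_coH196, where its part in the results was not tested. A set of 95 genes abundant in H196 cells and near 0 in MRC5_Mo summed to 23.7 to 61.8 CPM in MRC5_coH196, at most 0.782% of their level in H196 cells, and to 8.36 to 10.4 CPM in MRC5_coH69. The scaling factors of the libraries (TMM) moved with the group, at 1.04 to 1.05 in MRC5_Mo and 0.916 to 0.941 in MRC5_coH196. In bulk RNA, fewer cells of one state and less RNA of a gene in each cell cannot be told apart.

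The levels of the subunits were compared first, in TPM, which scale each library to the same total and take gene length into account. Together the members made up 0.727% ± 0.017 of all TPM in MRC5_Mo (SD, n = 3), 0.703% ± 0.012 in MRC5_coH69, 0.456% ± 0.0056 in MRC5_coH196, 0.937% ± 0.0017 in H196_Mo and 0.804% ± 0.025 in H196_Co. In MRC5_Mo the mean level ran from 28.3 TPM for PSMD12, a lid subunit, to 575 TPM for PSMB4, a non-catalytic beta subunit, a span of 20.3-fold. PSMA7 (522 TPM) followed PSMB4 without overlap of their libraries. PSMB5, PSMB6, PSMD2, PSMB1 and PSMB3, between 400 and 441 TPM, came next and each overlapped with its neighbour in that order. Of the 33 pairs of neighbours, 16 overlapped in MRC5_Mo and 21 in MRC5_coH196. In H196_Mo the span was wider, 38.6-fold, from 29.9 TPM for PSMD9 to 1152 TPM for PSMB1.

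The cell lines ordered their subunits differently, although the tables of both lines were made separately and no test was run across them. By mean TPM, 23 of the 34 members were lower in MRC5_Mo than in H196_Mo and 11 were higher, with a median log2 ratio of −0.15. The beta subunits PSMB1 (405 against 1152 TPM), PSMB7 (358 against 830 TPM) and PSMB4 (575 against 1018 TPM) and the ubiquitin receptor PSMD4 (307 against 624 TPM) were among the 5 with the lowest ratio. At the other end, PSMD2, a scaffold of the base and a ubiquitin receptor, had 418 TPM in MRC5_Mo and 179 TPM in H196_Mo. PSMD13 and PSMD3 of the lid were also higher in MRC5_Mo, at 183 against 84.0 TPM and 171 against 97.6 TPM. The plot of levels in both mono-cultures shows these subunits away from the diagonal.

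**Figure D1:**
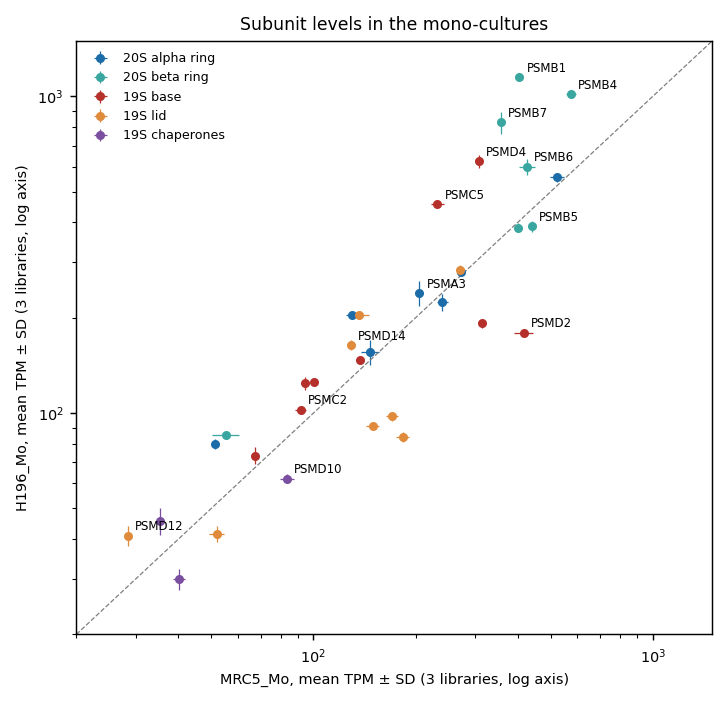
Mean level ± SD of each of the 34 members in MRC5_Mo (x axis) and H196_Mo (y axis), in TPM on log axes, 3 libraries per group, coloured by role, with the line of equal levels dashed. PSMB1, PSMB7 and PSMD4 lie above the line and PSMD2 lies below it.

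MRC5 fibroblasts cultured with H196 cells had less RNA of every member tested except the assembly chaperone PSMD10 than fibroblasts cultured alone. Of the 34 members tested, 33 fell and 1, PSMD10, rose at an adjusted p under 0.05 (edgeR quasi-likelihood test, Benjamini-Hochberg over 12819 genes), where 37.1% of all genes were called lower and 37.2% higher. The median log2 fold change of the members was −0.54, and that of all genes tested −0.0030. A log2 fold change below −0.58 was reached as well by 17 members, against 14.7% of all genes. The libraries of both groups did not overlap for any member, 33 being lower in every MRC5_coH196 library, which was so for 37.9% of all genes. Scaling by library totals alone moved the median of all genes to −0.18 and the calls over all genes from 4765 higher and 4757 lower to 3467 higher and 6295 lower, while 33 members were lower as before and PSMD10 was no longer called, with medians of −0.70 for the core and −0.72 for the cap.

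Core and cap fell together. All 14 core members were lower, with a median log2 fold change of −0.53, and so were 19 of 20 cap members, with a median of −0.54. The 7 alpha subunits had a median of −0.68 and a range from −0.94 (PSMA3) to −0.37 (PSMA1). The 7 beta subunits had a median of −0.47 and a range from −0.74 (PSMB6) to −0.35 (PSMB4). The 9 base subunits had a median of −0.77, from −0.87 (PSMC3) to −0.20 (PSMD2), and the 8 lid subunits a median of −0.56, from −0.90 (PSMD14) to −0.34 (PSMD8). The members thus differed among themselves, and the roles overlapped in their ranges. The heat map by library and the plot of fold changes show this for each gene.

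**Figure D2:**
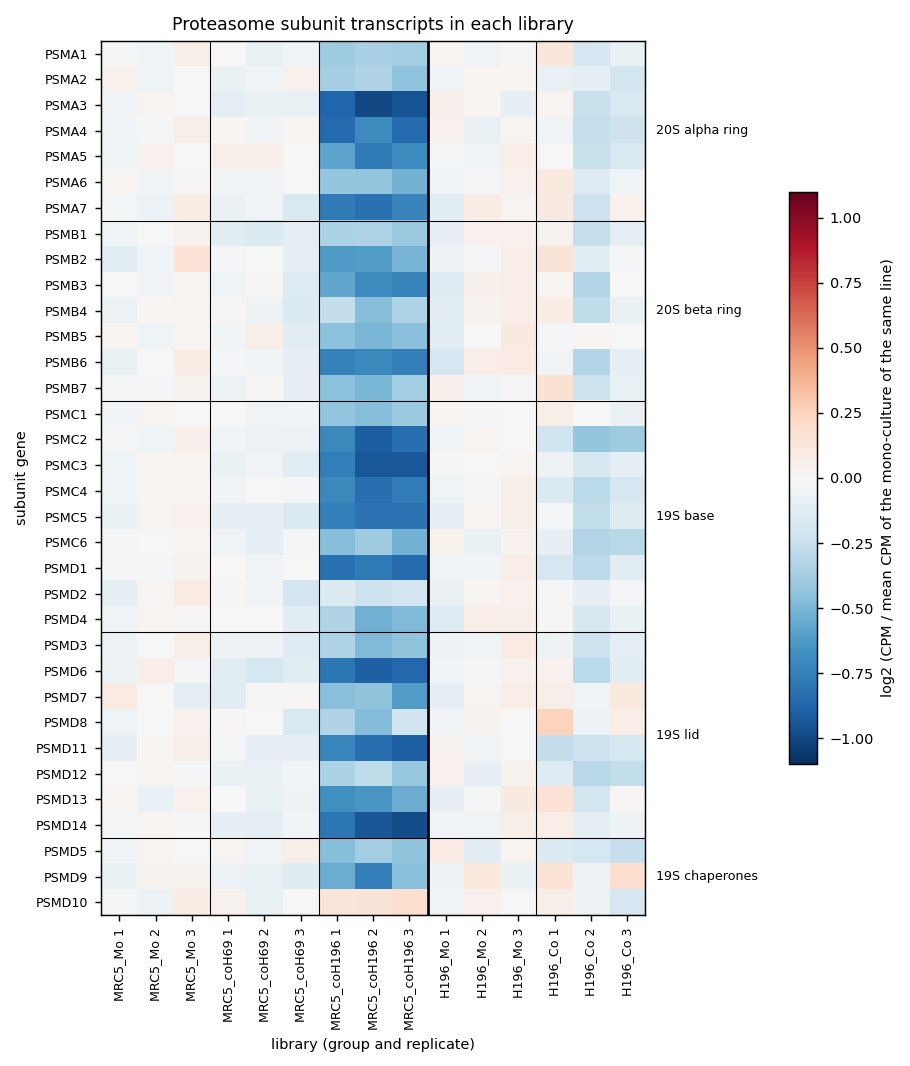
Level of each of the 34 members (rows, grouped by role) in each of the 15 libraries (columns), as log2 of the TMM-scaled CPM over the mean of the mono-culture of the same line, blue for lower and red for higher. The 3 MRC5_coH196 columns are blue for every gene except PSMD10, and the MRC5_coH69 columns are pale.

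Among the subunits with the largest falls, PSMA3, an alpha ring subunit (chromosome 14, 58244843 to 58272004, GRCh38.p13), had 74.2, 77.5 and 75.4 CPM in the MRC5_Mo libraries, 70.3, 72.0 and 71.7 CPM in MRC5_coH69 and 41.4, 38.1 and 39.1 CPM in MRC5_coH196. Each MRC5_coH196 library was thus far below all 6 others. The log2 fold change against MRC5_Mo was −0.94 ± 0.049 (SE), or 0.523-fold, with an adjusted p of 1.05e-14 by the edgeR quasi-likelihood test. PSMD14, the deubiquitinase of the lid (chromosome 2, 161308425 to 161411717), had 89.9, 92.3 and 89.2 CPM in MRC5_Mo, 85.1, 84.2 and 88.4 CPM in MRC5_coH69 and 52.1, 47.0 and 45.9 CPM in MRC5_coH196. Its log2 fold change was −0.90 ± 0.051 (edgeR adjusted p = 3.78e-14). The other cap subunits below −0.80 were the ATPases PSMC3 (−0.87) and PSMC2 (−0.81), the scaffold PSMD1 (−0.81) and the lid subunits PSMD6 (−0.85) and PSMD11 (−0.81). PSMC2 had 109, 107 and 114 CPM in MRC5_Mo, 108, 105 and 105 CPM in MRC5_coH69 and 67.5, 58.9 and 62.1 CPM in MRC5_coH196.

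The 3 catalytic subunits of the core were lower as well. PSMB6, the caspase-like subunit (chromosome 17, 4796161 to 4798495), had 119, 126 and 134 CPM in MRC5_Mo, 125, 124 and 119 CPM in MRC5_coH69 and 75.6, 77.3 and 75.1 CPM in MRC5_coH196, a log2 fold change of −0.74 ± 0.048 (edgeR adjusted p = 6.09e-13). PSMB5, the chymotrypsin-like subunit that proteasome inhibitors such as bortezomib bind (chromosome 14, 23023083 to 23035220), had 186, 178 and 188 CPM in MRC5_Mo, 180.4, 192 and 169.9 CPM in MRC5_coH69 and 135, 130 and 134 CPM in MRC5_coH196. Its log2 fold change was −0.47 ± 0.047 (edgeR adjusted p = 2.03e-09). The trypsin-like subunit PSMB7 (chromosome 9, 124353465 to 124415442) had 135, 136 and 141 CPM in MRC5_Mo, 132, 139 and 129 CPM in MRC5_coH69 and 100.2, 97.2 and 105 CPM in MRC5_coH196, at −0.44 ± 0.046 (edgeR adjusted p = 3.76e-09). None of the 3 overlapped between these groups, and of the 3 the smallest level in MRC5_coH196 was that of PSMB6 in both CPM and TPM (233 ± 9.3 TPM against 239 ± 7.4 for PSMB7 and 289 ± 1.3 for PSMB5, SD, n = 3), although PSMB6 and PSMB7 overlapped in TPM.

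The ubiquitin receptors among the members were PSMD4 and PSMD2. PSMD4 (chromosome 1, 151254734 to 151267479) had 169, 178 and 175 CPM in MRC5_Mo, 174, 174 and 159 CPM in MRC5_coH69 and 138, 121 and 124 CPM in MRC5_coH196, a log2 fold change of −0.45 ± 0.050 (edgeR adjusted p = 1.78e-08). PSMD2 (chromosome 3, 184299241 to 184309050) had the smallest fall of all members, with 558, 606 and 638 CPM in MRC5_Mo and 540.5, 514 and 518 CPM in MRC5_coH196. The gap between the closest libraries of these groups was small beside their spread, and the log2 fold change was −0.20 ± 0.053 (edgeR adjusted p = 0.00170). As the other subunits fell further, PSMD2 rose in the order of TPM levels from rank 5 in MRC5_Mo to rank 2 in MRC5_coH196.

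PSMD10, a chaperone of base assembly also known as gankyrin (chromosome X, 108084207 to 108091549), was the one member that did not fall. It had 53.1, 51.5 and 56.9 CPM in MRC5_Mo, 55.2, 51.1 and 53.9 CPM in MRC5_coH69 and 58.9, 59.6 and 61.0 CPM in MRC5_coH196. The log2 fold change was 0.15 ± 0.051 (edgeR adjusted p = 0.00960) and depended on scaling: it was −0.022 with library totals alone and −0.019 by limma on log2(FPKM + 1), neither of them called. Without MRC5_Mo replicate 2 it was 0.12 and was not called. The other base chaperones fell with the subunits, PSMD9 at −0.58 ± 0.062 and PSMD5 at −0.43 ± 0.050.

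**Figure D3:**
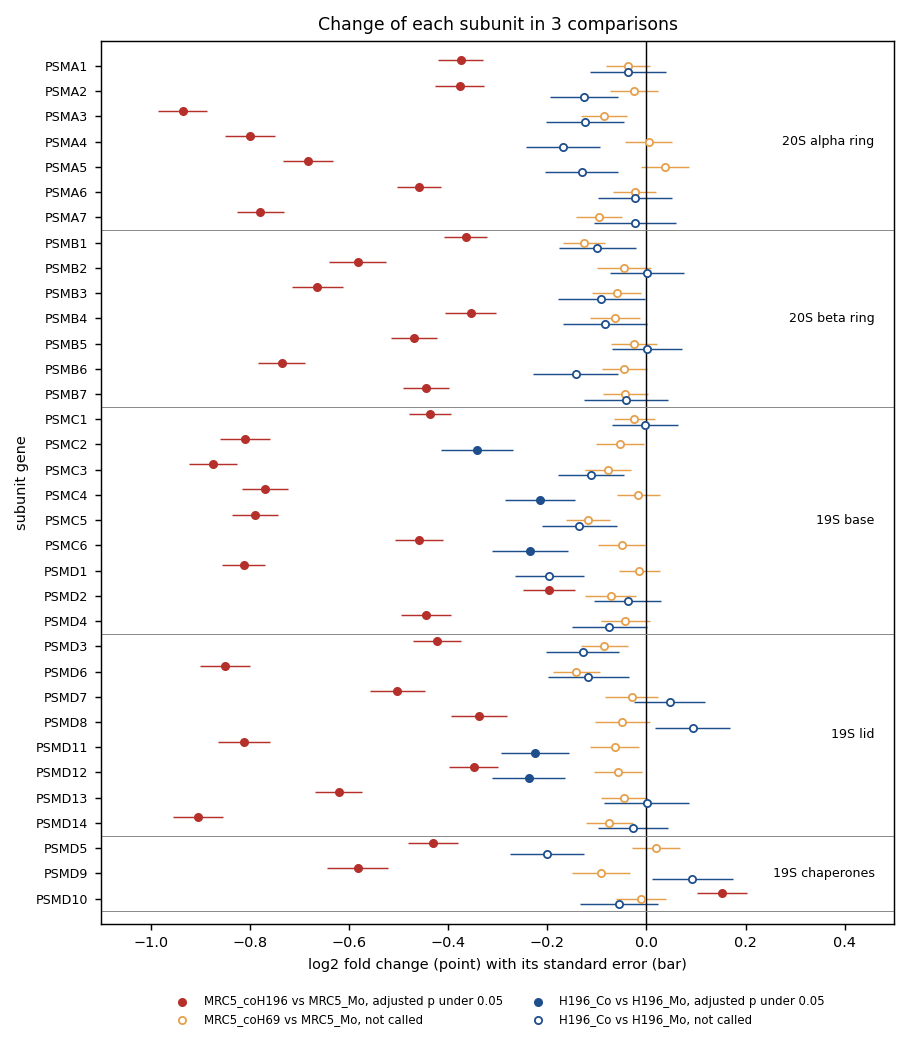
Log2 fold change (points) with its standard error (bars) of each of the 34 members, grouped by role, for MRC5_coH196 and MRC5_coH69 against MRC5_Mo and for H196_Co against H196_Mo, from the edgeR fits. Filled points passed an adjusted p under 0.05, which 34 members did in the first comparison, none in the second and 5 in the third.

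In fibroblasts cultured with H69 cells no member passed the test against the same MRC5_Mo libraries. None of the 34 members was called against MRC5_Mo by edgeR, with 2.93% of all genes called lower and 3.78% higher, and the smallest adjusted p was 0.0732 (PSMD6). The log2 fold changes lay between −0.14 (PSMD6) and 0.038 (PSMA5), with standard errors of 0.041 to 0.058 and a median of −0.047. At an unadjusted p under 0.05, 3 members were lower and none higher, and DESeq2 called none at its adjusted p and 4 lower at the unadjusted one. The libraries did not overlap for 6 members, all lower in MRC5_coH69 (PSMA3, PSMB1, PSMC5, PSMD6, PSMD12 and PSMD14), where 12.1% of all genes were lower without overlap. Library totals alone gave 2 calls, both lower, and so did a fit to the compared groups without MRC5_coH196. The fit without MRC5_Mo replicate 1 also gave 2.

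MRC5_coH196 and MRC5_coH69 were then compared directly, using the same MRC5_coH196 libraries as above. In edgeR, 33 members were lower in MRC5_coH196 and 1, PSMD10, was higher, where 36.6% of all genes were called lower and 35.7% higher. The median log2 fold change was −0.48, and 14 members also passed −0.58, as did 13.1% of all genes. The largest differences were those of PSMA3 at −0.85 ± 0.050 and PSMD14 at −0.83 ± 0.051. PSMD2 had the only overlapping libraries, at 605, 589 and 519.6 CPM in MRC5_coH69 against 540.5, 514 and 518 CPM, and its call (−0.12 ± 0.053, edgeR adjusted p = 0.0382) was lost in the DESeq2 fit and in 5 of the fits that left out 1 library. PSMD10 (0.16 ± 0.051) was at 0.0049 with library totals alone and was not called there.

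H196 cells cultured with MRC5 cells differed little from H196 cells alone. In edgeR 5 of 34 members were lower in H196_Co and none higher, where 7.78% of all genes were called lower and 12.0% higher. The 5 were the base ATPases PSMC2 (−0.34 ± 0.072), PSMC6 (−0.24 ± 0.077) and PSMC4 (−0.21 ± 0.070) and the lid subunits PSMD12 (−0.24 ± 0.073) and PSMD11 (−0.23 ± 0.069), so that no core member was among them and none passed −0.58. The medians were −0.088 for the core and −0.11 for the cap, and that of all genes −0.0015. In 10 members every H196_Co library was below every H196_Mo library, which was so for 17.0% of all genes. PSMC2 (chromosome 7, 103344405 to 103369395) had 142, 148 and 145 CPM in H196_Mo and 125, 108 and 111 CPM in H196_Co (edgeR adjusted p = 0.00242).

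This count of 5 rested on single libraries and on the scaling. It was 2 without H196_Co replicate 2, 1 without H196_Co replicate 3, 2 without H196_Mo replicate 1 and 1 without H196_Mo replicate 3, and 13 with library totals alone, where calls over all genes went from 1542 higher and 996 lower to 1024 higher and 2067 lower. The catalytic subunits overlapped between the groups. PSMB5 had 181, 197 and 211 CPM in H196_Mo and 195, 199 and 196.1 CPM in H196_Co. PSMB6 had 189, 227 and 229.5 against 211, 172 and 202 CPM. PSMB7 had 398, 375 and 377 against 431, 325 and 362 CPM, so that its H196_Co libraries lay both above and below all H196_Mo libraries. PSMD14 had 136, 135 and 145 CPM in H196_Mo and 146, 129 and 134 CPM in H196_Co. PSMD2 had 295, 316 and 322 against 309, 293 and 308 CPM. PSMD4 had 386, 449 and 445 against 431, 379 and 406 CPM. These 3 cap members overlapped between the groups as well. PSMA3 had 110.5, 108 and 99.8 against 108, 89.4 and 94.6 CPM. PSMD10 had 46.9, 49.8 and 48.0 against 50.4, 46.5 and 42.3 CPM. Both overlapped too, and none of these members was called.

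The response of the fibroblasts to H196 cells was set against that of H196 cells to the fibroblasts by a test of their difference, in 1 edgeR fit over 15 libraries and 13585 genes. The difference was below 0 for 31 of the 34 members and above 0 for none at an adjusted p under 0.05, where 27.1% of all genes were called lower and 24.1% higher, and its median was −0.54. The largest were PSMD14 at −0.90 ± 0.081 and PSMA3 at −0.84 ± 0.088. For the catalytic subunits it was −0.62 ± 0.098 (PSMB6), −0.50 ± 0.079 (PSMB5) and −0.43 ± 0.096 (PSMB7). PSMD2 (−0.19 ± 0.084), PSMD12 (−0.14 ± 0.081) and PSMD10 (0.18 ± 0.090) were not called. Across the 34 members the log2 fold changes in both cell lines had a Pearson correlation of 0.30 and a Spearman correlation of 0.25, a description over genes that share libraries.

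The balance of core and cap was read from the ratio of their sums. In MRC5_Mo the log2 ratio of summed core FPKM to summed cap FPKM was 0.49, 0.45 and 0.49, in MRC5_coH69 0.49, 0.49 and 0.49, and in MRC5_coH196 0.44, 0.49 and 0.47. MRC5_coH196 overlapped MRC5_Mo and lay just below MRC5_coH69 without overlap, with group means of 0.48 ± 0.022 in MRC5_Mo, 0.49 ± 0.0039 in MRC5_coH69 and 0.46 ± 0.025 in MRC5_coH196 (SD, n = 3). The overlap with MRC5_Mo was absent on 2 other scales. From summed CPM, MRC5_coH196 lay below MRC5_Mo without overlap (−0.73 to −0.70 against −0.69 to −0.65). As a difference of mean log2(FPKM + 0.1) values, MRC5_coH196 lay above MRC5_Mo without overlap (0.38 to 0.39 against 0.31 to 0.35). This core mean held PSMB11, at 0 TPM in every MRC5_Mo library and at most 0.06 TPM in MRC5_coH196. PSMB11 thus could not fall there as the other core members did. The direction of any shift between core and cap thus differed between these measures, which also differ in their use of PSMB11. It adds next to nothing to the sums, but counts in the mean as much as any other core gene. No mean without PSMB11 was taken, so its part in the shift was not tested. In H196_Mo the ratio was 0.97, 0.97 and 0.96 and in H196_Co 1.02, 0.91 and 0.96, which overlapped, with means of 0.97 ± 0.0054 and 0.96 ± 0.055. H196 cells thus held more core RNA for each unit of cap RNA than MRC5 cells in all libraries, 1.95-fold against 1.39-fold in the mono-cultures, again across tables that were made separately. With 3 libraries against 3, a two-sided exact permutation test cannot give a p under 0.1, and the ratio is given without one.

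The sums themselves went down in MRC5_coH196 by a like amount. The core summed to 4156, 4185 and 4347 TPM in MRC5_Mo and to 2646, 2666 and 2609 TPM in MRC5_coH196, or 0.624 of the level. The cap summed to 2958, 3061 and 3102 TPM and to 1956, 1905 and 1884 TPM, or 0.630 of the level. In TMM-scaled CPM these values were 0.685 and 0.709. For H196 cells the scale mattered more: the core was at 6215, 6194 and 6178 TPM in H196_Mo and 5531, 5070 and 5345 TPM in H196_Co without overlap (0.858 of the level), but in TMM-scaled CPM the groups overlapped at 0.951 of the level. The cap gave 0.859 in TPM and 0.938 in CPM. The plot of sums and ratios shows both.

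**Figure D4:**
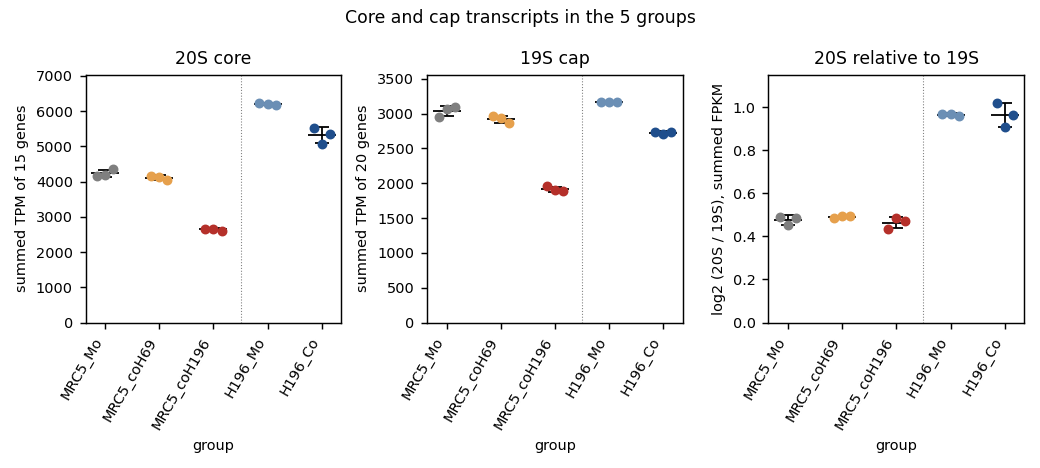
Summed TPM of the 20S core genes (left) and the 19S cap genes (middle) and the log2 ratio of their summed FPKM (right) in each library of the 5 groups (points), with the group mean and SD (bars, n = 3). Both sums are lowest in MRC5_coH196, while its ratio lies within the range of the other MRC5 groups or just below it.

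Other genes of the pathway were read from lists of 39 genes, all of which were tested. In MRC5_coH196 against MRC5_Mo, 22 were lower and 10 higher, with a median log2 fold change of −0.22, where 37.1% of all genes were called lower and 37.2% higher. Both further subunits of the cap fell: the ubiquitin receptor ADRM1 at −0.60 ± 0.053 and SEM1 at −0.51 ± 0.078. Of the 6 assembly factors 4 fell, led by PSMG1, a chaperone of the alpha ring, with 22.8, 22.7 and 25.9 CPM in MRC5_Mo and 10.6, 10.4 and 10.9 CPM in MRC5_coH196 (−1.16 ± 0.079, edgeR adjusted p = 1.60e-12). Of the 5 alternative caps and inhibitors 4 fell, led by PSME3, the nuclear PA28 gamma activator, at −1.05 ± 0.046. The inducible subunits PSMB10 (−0.61 ± 0.078) and PSMB8 (−0.30 ± 0.069) fell, and PSMB9 (−0.22 ± 0.11) was not called.

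The genes that deliver substrates moved in both directions. Of 10 associated enzymes and shuttle factors 3 rose, led by RAD23B (0.32 ± 0.040), and 4 fell, led by USP14, a deubiquitinase bound to PSMD2 (−0.36 ± 0.054). Of 8 genes of ubiquitin and its segregase 5 fell, led by UFD1 (−0.79 ± 0.051), a cofactor of VCP, and 3 rose. Over all genes, 37.1% were called lower and 37.2% higher.

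Of the 5 regulators 4 rose in MRC5_coH196 and 1 fell, where 37.2% of all genes were called higher and 37.1% lower. NGLY1, the enzyme that removes N-glycans and is needed to activate NFE2L1, had 18.6, 16.5 and 19.3 CPM in MRC5_Mo and 38.0, 34.4 and 39.2 CPM in MRC5_coH196, without overlap (1.04 ± 0.070, edgeR adjusted p = 1.32e-12). DDI2, the protease that cleaves NFE2L1, rose by 0.59 ± 0.061, AKIRIN2, which brings proteasomes into the nucleus, by 0.42 ± 0.057, and NFE2L1 itself by 0.27 ± 0.044. NFE2L1 was at 0.096 to 0.28 under the other scalings and was not called in 2 of these 4. NFE2L2, a related factor of the oxidative stress response, fell at −0.34 ± 0.056. The RNA level of a factor does not show its activity, which needs cleavage and entry into the nucleus.

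In MRC5_coH69 against MRC5_Mo 1 of the 39 rose, PSMB9, and none fell, where 3.78% of all genes were called higher and 2.93% lower. PSMB9 had 8.28, 6.91 and 7.89 CPM in MRC5_Mo and 9.57, 10.7 and 9.33 CPM in MRC5_coH69 (0.36 ± 0.10, edgeR adjusted p = 0.0311). This call was lost in 4 of the 9 fits that left out 1 library. Against MRC5_coH69, MRC5_coH196 had 23 of the 39 genes lower and 10 higher, where 36.6% of all genes were called lower and 35.7% higher. In H196_Co 3 of the 39 rose and 3 fell, where 12.0% of all genes were called higher and 7.78% lower. NGLY1 was again the highest, at 34.7, 33.4 and 33.5 CPM in H196_Mo and 55.7, 49.3 and 48.6 CPM in H196_Co (0.60 ± 0.078, edgeR adjusted p = 1.72e-05). Among the others, PSMG4 (0.28) was higher, and PSME2 (−0.34), UBQLN2 (−0.25) and NPLOC4 (−0.21) were lower. The calls of PSMG4, UBQLN2 and NPLOC4 were each lost in 4 of the 6 fits that left out 1 library, and that of PSMG4 also under 3 other scalings and that of UBQLN2 under 1. In the test of the difference between the cell lines, NGLY1 was at 0.41 ± 0.10 and DDI2 at 0.69 ± 0.11, both called, and PSMG1 had the largest difference of the 39 at −1.26 ± 0.13.

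**Figure D5:**
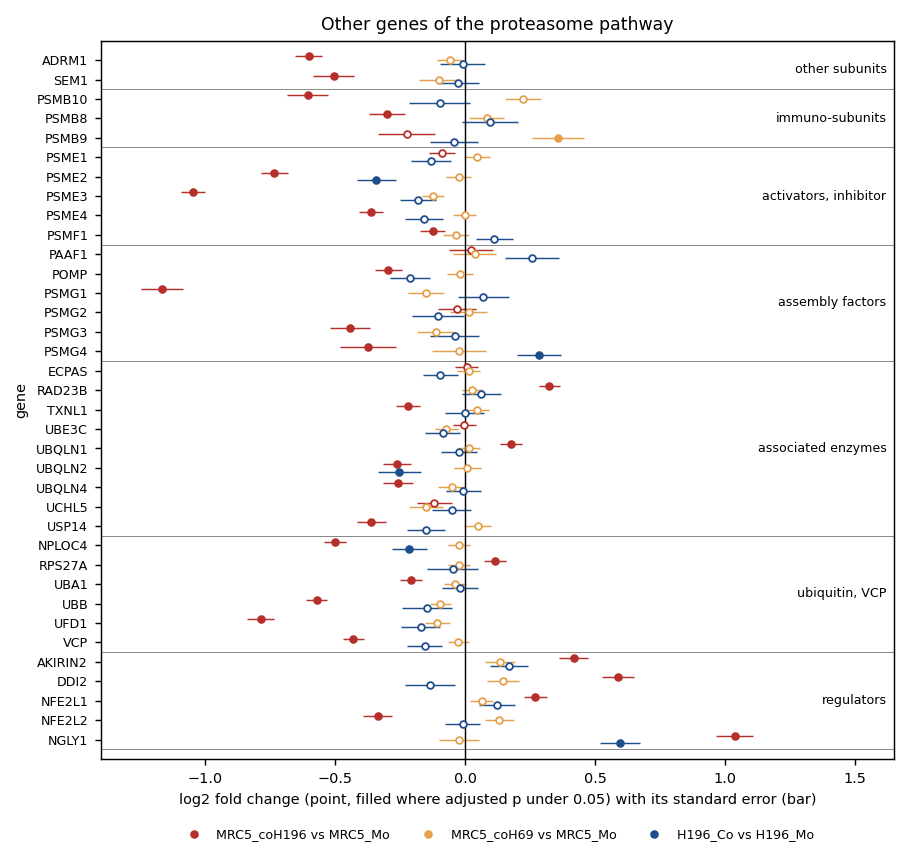
Log2 fold change (points, filled where the adjusted p is under 0.05) with its standard error (bars) of other genes of the proteasome pathway, grouped by role, in MRC5_coH196 and MRC5_coH69 against MRC5_Mo and in H196_Co against H196_Mo. NGLY1 lies furthest to the right in MRC5_coH196 and PSMG1 furthest to the left.

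Some members share sequence with other loci. RefSeq names 45 pseudogenes of 19 members, and antisense genes of PSMA3, PSMD3 and PSMD6. The use of strand in counting is not given in the sources used here, and reads of such copies or antisense RNA could not be told apart from those of the named gene. Among the members, expected counts were not whole numbers only for PSMC1 in 1 H196 library.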

How the data were processed

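RNA of MRC5 and H196 cells, cultured alone or with a partner line, was sequenced in 3 libraries for each of 5 groups (BGISEQ, oligo(dT) selection), and labelled parallel replicates. Reads were filtered by the authors (SOAPnuke), then placed on the GRCh38.p13 genome by HISAT and on reference gene sequences by Bowtie2; the submitters' processing notes list HISAT2 2.1.0, Bowtie2 2.3.4.3 and RSEM 1.3.1. The deposited read counts are expected counts per gene, estimated by the authors and not normalized (92.1% of values are whole numbers in the H196 table and 93.7% in the MRC5 table). The deposited FPKM and TPM values were scaled by the authors for gene length and library size, and each cell line has a table of its own. The authors' normalized counts (6 columns for H196, 9 for MRC5), group averages and DESeq2 fold changes with their p-values were not used.

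Expected counts were rounded and fitted with edgeR 4.0.16 in R 4.3.3 (TMM, filterByExpr by group, quasi-likelihood, two-sided tests, Benjamini-Hochberg over all genes tested), with the 9 MRC5 libraries in 1 fit, the 6 H196 libraries in another, and all 15 in a joint fit for the difference between the lines. A gene was called at an adjusted p under 0.05. CPM are scaled by TMM, except those of marker genes and of H196-abundant genes (at least 20 CPM in each H196 library and under 0.5 CPM in MRC5_Mo), which use library totals. The SE was taken from the log2 fold change and its F statistic (|log2 fold change| / √F). The fits were also run on simulated counts, with far fewer changed genes than were called in these data. The outcome is not used here. DESeq2 1.42.0 and limma 3.58.1 (on log2 of FPKM plus 1 or plus 0.1) served as alternatives, with other scalings, filters and thresholds, and with each library left out. Values were given per library for PSMB5, PSMB6, PSMB7, PSMD14, PSMD2 and PSMD4 and, for each comparison, for the called core and cap members with the largest rise and fall; for the other pathway genes, those with the largest rise and fall of each list. Other genes named were chosen after their values were seen, and some pathway genes are not reported here. The members, lists and tests were chosen with earlier results of these data known. Replicate numbers did not pair the libraries: deviations of same-numbered libraries had correlations of −0.18 to 0.083. Replicates differed by more than counting noise in every pair. Promoter sequences are from RefSeq (GRCh38.p14).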

Additional observations from a re-analysis of the deposited data

Results flagged for a closer look

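The response to co-culture differed between the cell lines for 7 of the 9 members described by library, by the test of the difference itself (MRC5_coH196 against MRC5_Mo minus H196_Co against H196_Mo, edgeR quasi-likelihood test). Over all genes this test called 27.1% lower and 24.1% higher. Of the 9 members, PSMA3, PSMC2, PSMD10 and PSMD14 are extremes of the same comparisons. The log2 difference was −0.90 for PSMD14, −0.84 for PSMA3, −0.62 for PSMB6, −0.50 for PSMB5, −0.49 for PSMC2, −0.43 for PSMB7 and −0.40 for PSMD4. PSMC2 was the one of these that was also called lower in H196_Co. The MRC5_coH196 libraries had lower TMM factors than the MRC5_Mo libraries (0.916 to 0.941 against 1.04 to 1.05), a lower summed level of fibroblast markers (21290 to 22472 CPM against 33401 to 36056), and 23.7 to 61.8 CPM of H196-abundant genes against 8.97 to 9.92 CPM. The part of these in the differences was not tested.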

How the results depend on the processing

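The count of members lower in MRC5_coH196 against MRC5_Mo was 33 in each fit without 1 library and 17 with the fold limit; against MRC5_coH69 it was 32 to 33 without 1 library and 14 with the fold limit. PSMD10, the 1 member called higher in both, gave 0 with library totals, on both FPKM scales and with the fold limit, and 0 to 1 without 1 library against MRC5_Mo and 1 against MRC5_coH69; against MRC5_Mo its log2 value turned to −0.022 (library totals) and −0.019 (FPKM with either pseudocount). Lower members in MRC5_coH69 numbered 2 with library totals and with only the groups compared, and 0 to 2 without 1 library. Lower members in H196_Co numbered 13 with library totals, 1 at an adjusted p under 0.01, 0 with the fold limit and 1 to 5 without 1 library. The replicate block gave 3 of them; it changed no other call of these counts, and the numbers do not pair the libraries. For the difference between the lines, 15 were lower with the fold limit and 26 to 32 without 1 library, and 1 was higher with DESeq2 size factors, DESeq2 and the filter of 10 counts, and 0 to 1 without 1 library. The cause of these shifts was not tested. The log2 core to cap ratio of MRC5_coH196 minus MRC5_Mo (−0.012) was 0.050 as a mean of log2 values, with the near-absent PSMB11 in the core. It was −0.050 from summed CPM, 0.013 without the PSMD chaperones and −0.025 to 0.0014 without 1 library. Minus MRC5_coH69 (−0.028) it was 0.028, −0.060 and −0.0042, −0.054 without the most abundant member of each, and −0.039 to −0.014 without 1 library. The ratio was 0.016 for MRC5_coH69 minus MRC5_Mo (0.0031 to 0.023 without 1 library) and −0.0036 for H196_Co minus H196_Mo (−0.031 to 0.024). With 3 libraries a group, differences of the size of the standard errors could not be shown.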
